A study of Mus musculus with 4 samples.

Results

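The comparison described here is between 2 of the 4 arrays of the series: RAW264 macrophages that received siTfe3/Tfeb and iron, and RAW264 macrophages that received siTfe3/Tfeb and were left untreated. The arrays were chosen by their titles, and every gene of the array design took part. RAW264 cells are an established line of BALB/c origin with macrophage properties. In the study, cells received small interfering RNA (siRNA) labelled as directed at Tfe3 and Tfeb together, or at green fluorescent protein (GFP), which mouse cells lack. From 48 hours after transfection the cultures were held for 24 hours with 500 µM ferric chloride (FeCl3) or without it, and total RNA was read on 1-colour expression arrays. The 4 groups were siGFP untreated, siGFP with iron, siTfe3/Tfeb untreated and siTfe3/Tfeb with iron, with 1 array each. The comparison asks how transcript levels differ with iron loading where the siRNA against both factors is present in both cultures. With 1 array a side, no difference could be checked against replicates, and conditions were compared without any test or p-value. The siGFP pair shares no array with the siTfe3/Tfeb pair, and its values are given beside them. Differences between the iron responses of the siRNA groups were not tested.

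Iron taken up by macrophages is stored in ferritin, released through the exporter ferroportin, or left as reactive ferrous iron that promotes oxidation of lipids and thiols. The factor Nrf2, held in check by Keap1, answers oxidants by activating glutathione, thioredoxin, ferritin and haem oxygenase genes through antioxidant response elements. Tfe3 and Tfeb belong to the MiT/TFE family, which binds the CLEAR element in genes of lysosomes and autophagy, organelles through which macrophages handle ferritin iron.

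The values are processed signals of 1 representative probe per gene, and a log2 difference is the iron array minus the untreated array after each was scaled to its 75th percentile. The 75th percentile was 636 on the untreated and 593 on the iron array, no spot was saturated, and 14958 and 14388 named genes were well above background. All 4 arrays lay on 1 slide. The only error available was the spread of repeated spots of 1 probe, which covers spotting and scanning and leaves out culture, extraction and labelling. It gave a standard deviation (SD) of a log2 difference of 0.0637 for probes with a scaled log2 level above 2, 0.084 from 0 to 2, 0.123 from -2 to 0, 0.261 from -4 to -2 and 0.487 below -4, and it is called the spot SD below. The siRNA check was uneven. The bright Tfe3 probe read 12421, 11306, 7736 and 7315 across the arrays, siGFP cells first and untreated before iron within each siRNA, and Tfe3 stood at 60.6% of its siGFP level untreated and 68.4% with iron. The brightest Tfeb probe read 341, 319, 319 and 338, and Tfeb was not clearly lower on the arrays labelled siTfe3/Tfeb. Of 22 macrophage markers, 20 were well above background on all 4 arrays. C1qa and C1qc were the others. Markers of other lineages reached this in 2 of 9 fibroblast, 3 of 8 epithelial, 2 of 8 endothelial, 5 of 8 T lymphocyte, 4 of 7 B lymphocyte, 3 of 9 neutrophil, 1 of 6 mast cell, 3 of 5 erythroid and 2 of 6 dendritic cell genes on the array. Their summed signals on the siTfe3/Tfeb arrays, untreated and with iron, were 754295 and 762485 for macrophage, 4182 and 4506 for T lymphocyte, 693 and 745 for B lymphocyte, 491 and 616 for neutrophil, 295 and 407 for erythroid and 61670 and 55702 for dendritic cell markers. Dendritic genes are partly shared with macrophages, and the part of any such cells in the results was not tested. Fewer cells of a type and less RNA per cell cannot be told apart in such bulk samples.

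More genes passed 2-fold upward than downward with iron. Of 15072 genes with a value, 271 stood at least 2-fold higher on the iron array (1.80%) and 105 at least 2-fold lower (0.697%). Where both arrays were well above background (14149 genes), 230 (1.63%) were higher and 64 (0.452%) lower. The remaining calls are bounds, 41 in each direction, from genes not well above background on the dimmer array. Genes measured on both arrays lay about evenly on either side of 0 after scaling, 6946 (49.1%) above and 7203 (50.9%) below. Their median was -0.0063, with a central 90% from -0.51 to 0.56. Scaling each array to its 75th percentile largely sets this centre, so a shift common to all genes cannot be seen. List counts below are to be read beside these shares of 1.63%, 0.452% and 49.1%. The largest differences were on the higher side, where 38 genes passed 4-fold and 6 passed 8-fold (Slc40a1, Clec4n, Hmox1, Procr, Treml4 and Fosl1). On the lower side no gene measured on both arrays passed 4-fold. Of the 2-fold genes with a value, 72.1% were higher. With background corrected by normexp instead, which draws dim signals together, 153 genes were higher and 17 lower, a share of 90.0% higher. Without the background filter 586 were higher and 1290 lower, a share of 31.2% higher. In the siGFP pair 235 of 15153 genes with a value were higher (1.55%) and 53 lower (0.350%).

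The 2-fold line has no special standing in these data, since genes lie close on both sides of it. Just inside it on the higher side were Gstt1 at 1.002, Adamts1 at 1.002 and Cxcl2 at 1.0002, and just outside were Ctsd at 0.995, Macroh2a3 at 0.993 and Fabp5 at 0.991, all as log2 differences. On the lower side Cd101 at -1.004, Pdk2 at -1.004 and Slc25a23 at -1.008 lay just inside, and Mex3b at -0.987, Zfp563 at -0.986 and Hspa1b at -0.984 just outside. Where a 2-fold gene had further probes well above background on both arrays, they mostly ran the same way. This was so for 82 of 84 further probes of 64 higher genes, 49 of them also 2-fold, and for 21 of 22 further probes of 19 lower genes, 10 of them also 2-fold. None was 2-fold in the opposite direction.

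**Figure D1:**
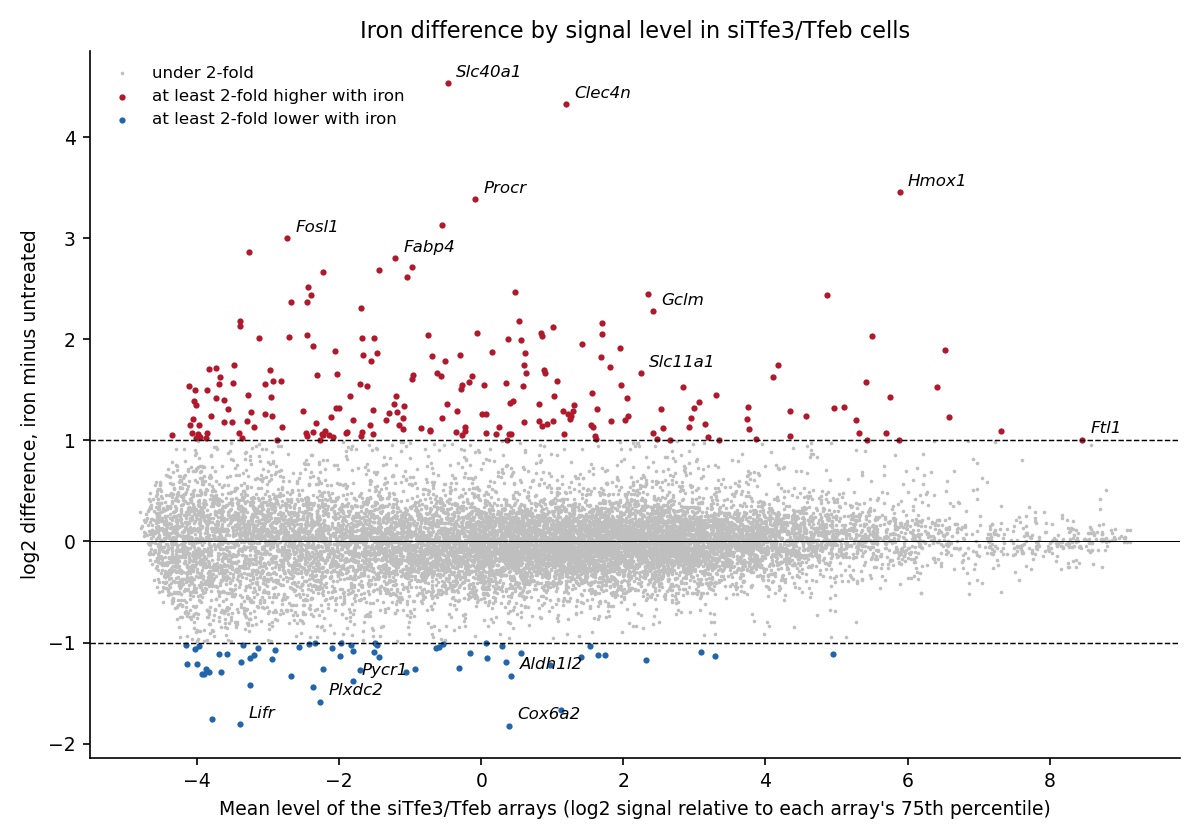
Log2 difference, iron minus untreated (vertical axis), against the mean scaled log2 level of the siTfe3/Tfeb arrays (horizontal axis) for the 14149 genes well above background on both. Dashed lines mark 2-fold; 230 red points are higher with iron and 64 blue points lower, and the upward differences reach 4.54 (Slc40a1) while the downward ones end at -1.82 (Cox6a2).

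The genes with the largest upward difference came from iron export, haem breakdown and the macrophage surface. Slc40a1, which encodes the iron exporter ferroportin, read 95.4 untreated and 2060.1 with iron, a 23.2-fold difference (log2 4.54, spot SD 0.19). Its siGFP readings were 80.2 and 1546, so the untreated arrays of both siRNAs were low and the iron arrays high. Hmox1, the haem oxygenase that frees iron from haem, read 11398 and 116155 (10.9-fold, log2 3.45, spot SD 0.064), against 11668 and 89784 in siGFP cells. Clec4n (Dectin-2, a lectin receptor for fungal mannans) read 324 and 6064 (20.1-fold, log2 4.33), against 1145 and 11184. Both siTfe3/Tfeb readings of Clec4n lay below the siGFP reading of the same treatment. Other leading genes include Procr, Treml4 and Fosl1, described with their groups, and Hal (histidine ammonia lyase), 24.4 and 166, Afp (alpha-fetoprotein), 127 and 774, Rnf183 (a RING finger protein), 125 and 711, and Igf2bp2 (an RNA-binding protein), 433 and 1832. Their log2 differences were 2.86, 2.71, 2.61 and 2.18.

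Among genes of iron import, export and storage, the 2-fold differences were all upward and few. Of 22 measured members, 12 lay above 0 (49.1% of all measured genes did) and 4 were 2-fold higher (against 1.63% of all), with a list median of 0.041 against -0.0063 over all measured genes. Beside Slc40a1 these were Slc11a1 (Nramp1, which moves iron out of phagosomes) with 1694 and 4996, Slc48a1 (Hrg1, which moves haem out of the phagolysosome) with 3789.6 and 7886, and Ftl1 (ferritin light chain) with 157988 and 295733. The log2 differences were 1.66, 1.16 and 1.01, and 1.42, 1.04 and 1.02 in siGFP cells. Fth1 (ferritin heavy chain) read 236301 and 313204, under 2-fold at 0.51. Tfrc (transferrin receptor 1, whose transcript is known to be destabilised in iron-replete cells) read 209.9 and 142, a log2 difference of -0.46 against -0.89 in siGFP cells. The lowest member was Hfe at -0.65, and the regulators Aco1 and Ireb2 stood at 0.057 and -0.17. In haem breakdown and transport, 10 of 12 measured genes lay above 0 (median 0.35), with Hmox1, Slc48a1 and Blvrb (biliverdin reductase B, 2682 and 7186, log2 1.52) 2-fold higher. Haem synthesis and iron-sulfur cluster assembly had no 2-fold member among 10 and 18 measured genes, with medians of 0.082 and -0.030. The largest there were Alas1, the first enzyme of haem synthesis, at 0.61 and Mms19, a cluster transfer factor, at -0.56.

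Metal-binding and antioxidant lists each held 1 to 3 genes that were 2-fold higher on the iron array, as were 1.63% of all measured genes. Metallothioneins, small proteins that bind zinc and copper, were bright: Mt2 read 30285 and 105044 (3.72-fold, spot SD 0.064) and Mt1 69689 and 138336 (2.13-fold). The zinc importer Slc39a4 read 983 and 2340.4. Their log2 differences of 1.90, 1.09 and 1.35 stood beside 1.49, 0.70 and 0.76 in siGFP cells, and 9 of 12 measured members of that list lay above 0 (median 0.39). In glutathione synthesis, Gclm, the modifier subunit of the rate-limiting ligase, read 1541 and 6966 (4.85-fold, log2 2.28, spot SD 0.075), and Slc7a11, the cystine importer, 330.0 and 953 (log2 1.63). The catalytic subunit Gclc was under 2-fold at 0.55. Cth, which makes cysteine from cystathionine, ran the other way at 589 and 264 (log2 -1.06), and the list was evenly split, with 6 of 12 measured members above 0 and a median of 0.048.

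Among glutathione S-transferases, which attach glutathione to electrophiles, 11 of 14 measured members lay above 0 with a median of 0.45. Gstm1 read 1090.3 and 3599 (log2 1.83), Gstm4 48.2 and 135 (1.58, or 0.89 with normexp background) and Gstt1 578 and 1079 (1.002). Gstm paralogs are near-identical, so a probe may read more than 1 of them. Gsta3, dim throughout, was not well above background with iron and at least 2.12-fold lower, where the siGFP pair stood at 1.48. With normexp background its log2 difference was -0.43. In the thioredoxin and peroxiredoxin system 13 of 17 lay above 0 (median 0.11), led by Srxn1 (sulfiredoxin, 1706 and 3659.6, log2 1.20), Txnrd1 (thioredoxin reductase, 4553 and 8498, 1.003) and Prdx1 (peroxiredoxin 1, 68207 and 125805, 0.99). Nrf2 regulators and enzymes that make or use NADPH lay on 1 side: all 19 measured members were above 0, against 49.1% of all measured genes, with a median of 0.44. Malic enzyme Me1 read 1377 and 2582 (log2 1.01), and the pentose phosphate dehydrogenases Pgd and G6pdx stood at 0.98 and 0.83. Nfe2l2, the gene of Nrf2 itself, was at 0.31 with another probe at -0.10, and Keap1 and Bach1 were at 0.0090 and 0.049. Cat (catalase) read 991 and 2181 (log2 1.24) and was the only 2-fold member of 15 measured genes of superoxide, peroxide and lipid peroxide handling.

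The promoters of 4 of these higher genes are shown because each holds the letters of the antioxidant response element, TGACNNNGC, searched on both strands in the 250 bases before the RefSeq start (GRCm38.p6). Each window gives up to 40 bases on either side of the match, read 5′ to 3′ along the gene, with the match in capitals. Gclm lies at chr3:122245383-122245471 (plus strand), Prdx1 at chr4:116685426-116685514 (plus), Procr, described below, at chr2:155751023-155751111 (plus) and Mt2 at chr8:94172499-94172587 (plus).
Gclm: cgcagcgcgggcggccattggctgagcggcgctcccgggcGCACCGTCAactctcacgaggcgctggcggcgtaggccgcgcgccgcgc
Prdx1: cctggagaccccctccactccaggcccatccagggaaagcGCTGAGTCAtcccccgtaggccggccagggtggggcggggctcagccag
Procr: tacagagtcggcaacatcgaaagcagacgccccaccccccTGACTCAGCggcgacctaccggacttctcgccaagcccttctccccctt
Mt2: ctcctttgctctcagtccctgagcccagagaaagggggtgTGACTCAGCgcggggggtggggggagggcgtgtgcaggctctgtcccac
The matches begin 134, 133, 154 and 79 bases before the start. In Prdx1, Procr and Mt2 the match overlaps one to the AP-1 element, TGANTCA. Of the measured antioxidant list genes with a promoter in the table, 13 of 53 (24.5%) held a match, against 25 of 169 (14.8%) of the 2-fold higher genes, 1504 of 11235 (13.4%) of all measured genes and 10.2% of all 32851 promoter windows of this length. Other groups had shares between those of the antioxidant lists and of all measured genes: 16 of 72 lysosomal list genes (22.2%), 9 of 47 2-fold lower genes (19.1%), 3 of 16 cholesterol synthesis genes (18.8%) and 11 of 61 amino acid list genes (18.0%). Whether these shares differ was not tested. A match describes letters in the window and says nothing about occupancy.

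Sterol synthesis genes all lay above 0 with iron, most by under 2-fold, while other lipid genes differed in both directions. All 23 measured cholesterol synthesis genes lay above 0, with a median of 0.74 against 0.43 in siGFP cells. Hsd17b7, a late reductase of the pathway, read 847 and 1806 (log2 1.19, spot SD 0.084), against 1726 and 2943 in siGFP cells. For Hsd17b7 the untreated siTfe3/Tfeb array was the lowest of the 4, and with iron it came close to the untreated siGFP array. Of the 23, 2 passed 2-fold, Hsd17b7 among them, and Cyp51, Lss and Idi1 stood under 2-fold at 0.94, 0.94 and 0.94. The sterol sensor partner Insig1 stood at 0.82, while its activator Srebf2 was at 0.21. Fatty acid synthesis genes had a median of 0.16, with 12 of 13 above 0 and none 2-fold.

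The letters TCACNCCA of a sterol element were found in 3 of 16 cholesterol synthesis genes with a promoter (18.8%), against 4.09% of all measured genes, and also in 9 of 53 antioxidant list genes (17.0%). In lipid uptake and storage, Fabp4, a fatty acid carrier of adipocytes and macrophages, read 104 and 673 (6.96-fold, log2 2.80, spot SD 0.19), and Fabp3 209.6 and 694 (log2 1.83). Lpl (lipoprotein lipase) read 16247 and 34804 (log2 1.20). Soat2, which esterifies cholesterol, read 1231 and 501 (log2 -1.19), against 336 and 392 in siGFP cells. The untreated siTfe3/Tfeb array was the high one of the 4 for Soat2. Liver X receptor targets and cholesterol efflux genes leaned down, with 8 of 12 below 0 and a median of -0.24. Among them the exporter Abca1 stood at -0.79, Apoc1 at -0.74 and Mylip at -0.67. Genes known from lipid-laden macrophages lay above 0 in 15 of 16 cases (median 0.96). In that list Pdpn (podoplanin) read 49.2 and 262 (log2 2.51), Mmp12 (macrophage elastase) 43.9 and 211 (2.37), and Itgax (integrin alpha X, CD11c) 99.2 and 373 (2.02). The siGFP readings were 402 and 2863, 399 and 2233, and 2108 and 4514. For Pdpn, Mmp12 and Itgax the siTfe3/Tfeb array with iron still lay below the untreated siGFP array. Gpnmb and Spp1 stood just under 2-fold at 0.97 and 0.95.

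**Figure D2:**
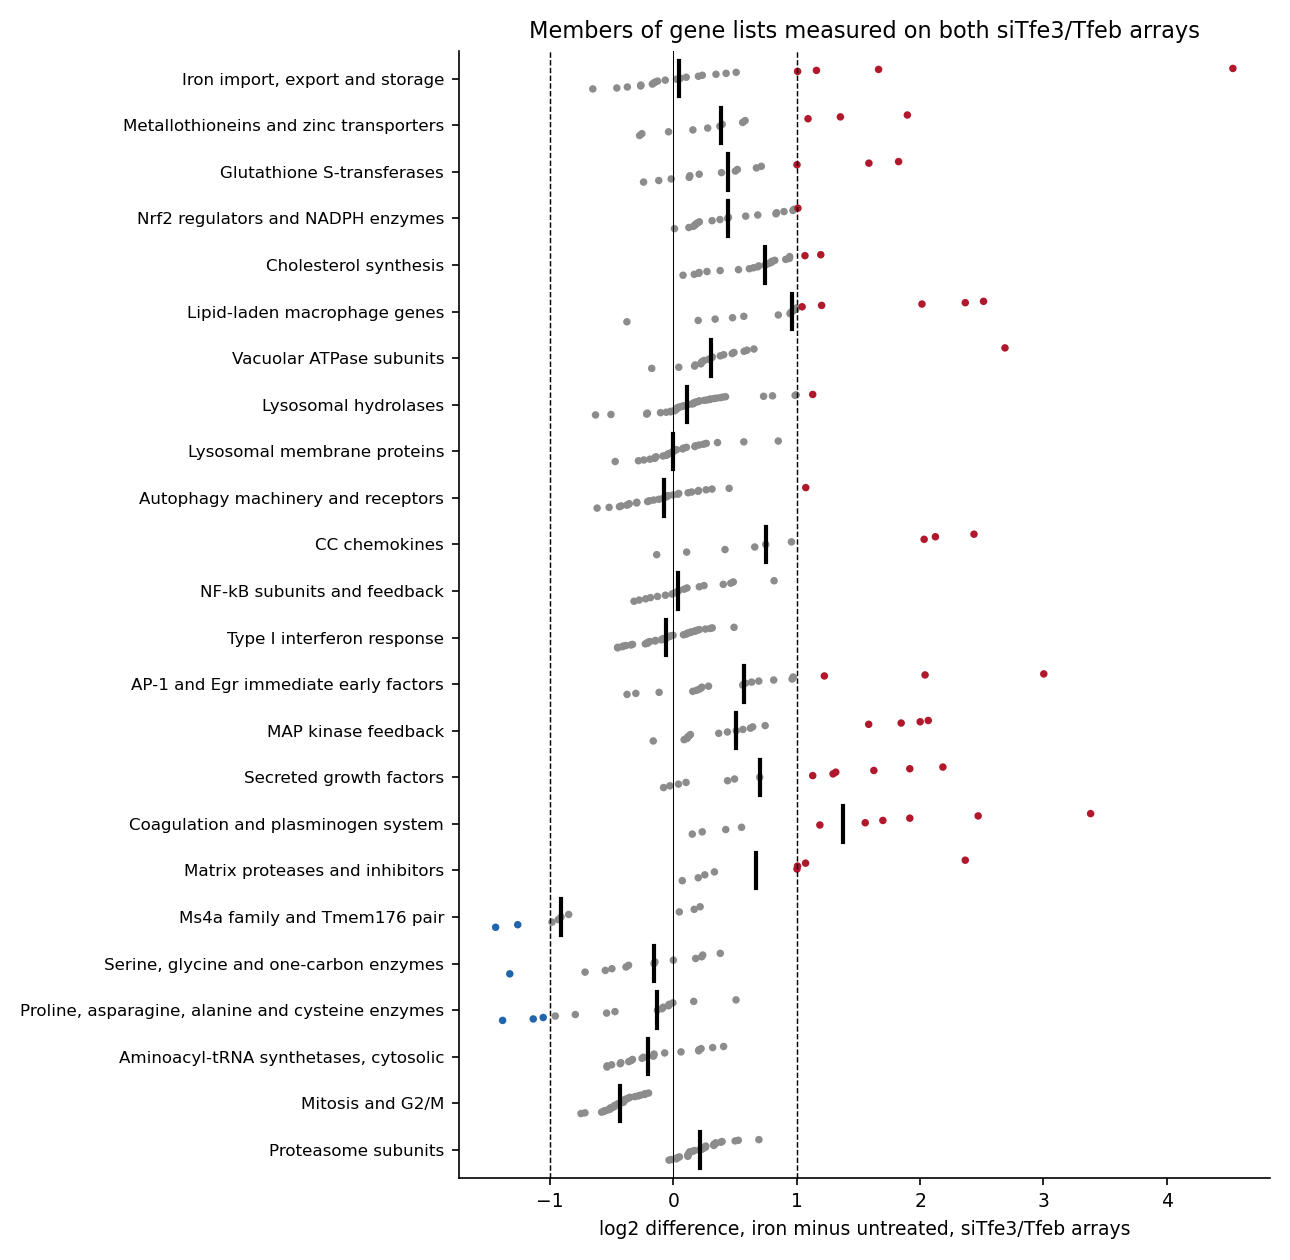
Log2 difference, iron minus untreated (horizontal axis), of every member of 24 gene lists measured on both siTfe3/Tfeb arrays, 1 point a gene, with the list median as a black bar and 2-fold as dashed lines. Red points are at least 2-fold higher and blue points at least 2-fold lower; the coagulation list has the highest median shown (1.37) and the Ms4a and Tmem176 list the lowest (-0.91).

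Lysosomal genes, the class that the MiT/TFE family is known to activate, were mixed. Subunits of the vacuolar ATPase, the proton pump of lysosomes, lay above 0 in 18 of 19 cases with a median of 0.31 (0.48 in siGFP cells). The only 2-fold subunit was Atp6v0d2, the isoform of osteoclasts and macrophages, which read 92.7 and 557 (6.44-fold, log2 2.69, spot SD 0.20), against 495 and 2544. With iron it reached about the level of the untreated siGFP array. Of 46 hydrolases, 37 lay above 0 (median 0.11), and Acp5, the tartrate-resistant phosphatase, was the only 2-fold member at 513 and 1045 (log2 1.13). The aspartic protease Ctsd read 37167 and 69022 (0.995) and Ctsk, Ctsb and Ctsl stood at 0.99, 0.80 and 0.73. Ctsf was the lowest hydrolase at -0.63. Lysosomal membrane proteins were split, 13 above and 14 below 0 with a median of -5.6e-05, where 25 of 27 lay above 0 in the siGFP pair (median 0.19), against 46.0% of all genes measured on both siGFP arrays. Cd63 was the highest at 0.85, and the channel Mcoln1 and the glycoprotein Lamp1, whose other probe also stood near 0, stood at -0.15 and -0.0076, against 0.22 and 0.14 in siGFP cells.

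Autophagy genes were mixed, and 1 of them passed 2-fold. The cargo receptor Sqstm1 (p62), itself a known Nrf2 target, read 17531 and 34356 (log2 1.07), while 19 of 29 members lay below 0 (median -0.076) and the initiating kinase Ulk1 stood at -0.52. In the folliculin and Rag group, which controls Tfe3 and Tfeb at the lysosome, no member was 2-fold among 19, and Fnip2 was the largest at 0.55, against 1.09 in siGFP cells. Within the MiT/TFE family Tfe3, Mitf and Tfeb stood at 0.022, 0.13 and 0.19 with iron, and the 3 other Tfeb probes ran the other way, between -0.50 and -0.034. Tfec, dim on all arrays, read 27.2 and 56.2 (log2 1.15, spot SD 0.39). Osteoclast differentiation genes, many of them MiT targets in that cell type, had a median of 0.47. Beside Fosl1, Atp6v0d2 and Acp5, the integrin chain Itgb3 (470.5 and 1302, log2 1.57) and the fusion protein Dcstamp (1610.2 and 4019, 1.42) were 2-fold higher.

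The CLEAR core TCACGTGA is shown in 3 lysosomal promoters, because it is the letter run that Tfe3 and Tfeb are known to bind and because the 3 genes differ in their iron values (0.995 for Ctsd, 0.48 for the pump subunit Atp6v1a and -0.15 for Mcoln1). Windows are as above: Ctsd chr7:142387879-142387966 (minus strand), Atp6v1a chr16:44139344-44139431 (minus), Mcoln1 chr8:3500433-3500518 (plus).
Ctsd: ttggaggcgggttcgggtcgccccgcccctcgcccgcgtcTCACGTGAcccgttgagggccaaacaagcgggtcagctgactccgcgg
Atp6v1a: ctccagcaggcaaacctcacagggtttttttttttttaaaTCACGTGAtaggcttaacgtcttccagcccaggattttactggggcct
Mcoln1: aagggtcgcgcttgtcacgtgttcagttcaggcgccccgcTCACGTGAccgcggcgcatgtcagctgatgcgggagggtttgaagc
The matches begin 99, 132 and 46 bases before the start. The core was found in 7 of 72 measured lysosomal genes with a promoter (9.72%), in 2 of 53 antioxidant list genes (3.77%), in 3 of 169 2-fold higher genes (1.78%), in 186 of 11235 measured genes (1.66%) and in 0.785% of all windows.

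Of the CC chemokines 3 and of the inflammatory mediators 6 were 2-fold higher with iron, against 1.63% of all measured genes. Ccl4 and Ccl3, macrophage inflammatory proteins that attract leukocytes, read 7979.8 and 40246 (5.41-fold, log2 2.44, spot SD 0.064) and 14295 and 54478 (2.03). In siGFP cells they read 17644 and 76714, and 19791 and 79817, higher than siTfe3/Tfeb cells at each treatment. Ccl2, the monocyte attractant, read 616 and 2502 (log2 2.12), against 4289 and 19052 in siGFP cells. For Ccl2 the siTfe3/Tfeb array with iron lay below the untreated siGFP array. Of 9 measured CC chemokines 8 lay above 0 (median 0.75, or 0.287 without the background filter). Ccl24 (eotaxin 2) read 24.2 and 17.97, not well above background with iron, where the siGFP arrays read 51.2 and 293. The interleukin 1 receptor antagonist Il1rn read 1385 and 7041 (5.46-fold, log2 2.45), the prostaglandin synthase Ptgs2 272 and 912 (1.85), and Tnf 904 and 2055 (1.29). The siGFP log2 differences were 2.36, 1.05 and 0.42, and for Il1rn and Tnf the siGFP readings, 4722 and 24493 and 3907 and 5275, exceeded the siTfe3/Tfeb readings of the same treatment. The colony-stimulating factors Csf1 and Csf2 and oncostatin M (Osm) stood at 1.32, 1.08 and 1.07. Those 6 genes were the 2-fold members of 18 measured inflammatory mediators, of which 12 lay above 0. Il1b (interleukin 1 beta) was at -0.18 and complement C3 at -0.91.

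NF-kB feedback genes and interferon response genes did not reach 2-fold in either direction. Of 18 NF-kB subunits and feedback genes, 11 lay above 0 (median 0.039), where 49.1% of all measured genes did. In siGFP cells 1 of 18 lay above 0 (median -0.30), where 46.0% of all did. The inhibitor Nfkbia read 15767 and 20567 (log2 0.49), against 23562 and 21630.5 (-0.14), and Tnip3 stood at 0.82 against -0.25. Of 37 type I interferon response genes 14 lay above 0 (median -0.058), where none did in the siGFP pair (median -0.42). Rsad2 (viperin, an antiviral enzyme) was the largest at 0.49 against -0.45, and Irf7 stood at -0.41. Toll-like receptors and Cd14 had no 2-fold member among 17 measured genes (median -0.0067), with Cd14 at 0.49 and Tlr8 at -0.64. Antigen presentation genes had none among 18 (median -0.038), with H2-DMb1 at -0.81 and H2-Eb1 at 0.53.

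Of the immediate early factors, 3 of 21 were 2-fold higher with iron, and of their feedback genes 4 of 17, against 1.63% of all measured genes. Fosl1 (Fra-1, an AP-1 subunit) read 33.7 and 252 (8.01-fold, log2 3.003, spot SD 0.36), against 224 and 469 in siGFP cells. The untreated siTfe3/Tfeb array was the low one of the 4 for Fosl1. Egr1, a growth-stimulated zinc finger factor, read 186 and 712 (log2 2.04), against 1429 and 1362, so the untreated siTfe3/Tfeb array was again the lowest. Egr2 read 284 and 618 (log2 1.22), against 1636 and 2627, and for Egr1 and Egr2 both siTfe3/Tfeb arrays lay below both siGFP arrays. Jun and Atf3 stood at 0.96 and 0.97, and 18 of 21 members lay above 0 (median 0.57). Feedback genes of MAP kinase and G protein signalling lay above 0 in 16 of 17 cases (median 0.51, or 0.328 with normexp and quantile normalization). The dual specificity phosphatases Dusp5 and Dusp4 read 106 and 356 (log2 1.85) and 766 and 2139 (1.58). The G protein regulators Rgs1 and Rgs16 read 559.8 and 2183 (2.07) and 412 and 1536 (2.001). These 4 were the 2-fold members, and in siGFP cells Dusp5, Dusp4, Rgs1 and Rgs16 stood at 1.26, 1.11, 2.02 and 1.29. The AP-1 letters TGANTCA stood in 20 of 169 2-fold higher genes with a promoter (11.8%), in 3 of 47 2-fold lower genes (6.38%), in 8 of 53 antioxidant list genes (15.1%) and in 5.85% of all measured genes.

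Of 13 measured secreted growth factors 6 were 2-fold higher with iron, as were 6 of 10 coagulation and plasminogen genes, against 1.63% of all measured genes. The receptor ligand Hbegf read 28.4 and 120.4 (4.55-fold, log2 2.18), Igf1 (insulin-like growth factor 1) 6249 and 17956 (1.63), Pdgfb 991 and 2265 (1.29) and Areg (amphiregulin) 46.9 and 95.6 (1.13). For Areg the siGFP arrays read 373 and 352, both above the siTfe3/Tfeb readings. Gdf15, a stress-responsive member of the TGF beta family, was not well above background untreated and at least 3.45-fold higher with iron (11.1 and 65.8), with a log2 difference of 0.88 under normexp background. Growth factor genes lay above 0 in 11 of 13 measured cases (median 0.70, or 0.308 without the background filter). All 10 measured genes of coagulation and plasminogen lay above 0 (median 1.37), and the siGFP median was 1.45. With normexp and quantile normalization the siTfe3/Tfeb median was 0.891, and without the background filter, which adds members near background, it was 0.329. Procr, the protein C receptor, read 185 and 1800.1 (10.4-fold, log2 3.38, spot SD 0.11). For Procr the siTfe3/Tfeb readings lay below the siGFP readings of 396 and 3743 at the same treatment. The activator Plau and its receptor Plaur stood at 1.92 and 1.70, tissue factor F3 at 1.55 (0.71 with normexp background) and factor X (F10) at 1.19. Vwf (von Willebrand factor) read 115 and 119, a log2 difference of 0.15 against 1.45 in siGFP cells. Matrix proteases were above 0 in all 8 measured cases, with Mmp19, Adam8 and Adamts1 2-fold beside Mmp12 at 1.07, 1.01 and 1.002. Their median was 0.67, or 0.404 with normexp and quantile normalization and 0.201 without the background filter. Mmp9, a gelatinase, read 39.9 and 44.3 (log2 0.25), against 518 and 183 (-1.52).

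Surface receptors differed in both directions. Among C-type lectins Clec4n, Clec4d and Clec4e were higher, Clec4d at 15814 and 43828 (log2 1.57) and Clec4e (Mincle) at 3807 and 9686 (1.45). Clec4a1 was lower at 621 and 287 (-1.01), Clec12a stood at -0.93, and the list median was -0.0037. Treml4 read 147 and 1197 (8.77-fold, log2 3.13, spot SD 0.19), against 243 and 979.6, while Trem2 was at 0.48. Treml4 differs from Clec4n in that its siTfe3/Tfeb reading with iron lay above the siGFP one. Of receptors for cytokines, Il7r (interleukin 7 receptor alpha) read 54.1 and 319 (6.33-fold, 2.66) and Lifr (leukaemia inhibitory factor receptor) 113 and 30.1 (-1.80, spot SD 0.39). Integrin alpha 8 (Itga8) read 53.8 and 118 (log2 1.24), against 175 and 162. The inhibitory CD200 receptors Cd200r1, Cd200r2 and Cd200r4 stood at 1.09, 1.11 and 1.06, and under 2-fold with normexp background at 0.97, 0.94 and 0.68. Siglecf, an inhibitory sialic acid receptor, was lower at 99.5 and 41.8 (-1.15), against 157 and 231 (0.54). The tetraspan Ms4a and Tmem176 genes had a median of -0.91, beside -0.97 in the siGFP pair, and without the background filter, which adds members near background, the median was 0.146. Ms4a4b read 203 and 69.6 (-1.44) and Ms4a6b 516 and 200.2 (-1.26), and Tmem176a and Tmem176b stood at -0.93 and -0.85. Chemoattractant receptors had 1 2-fold member of 12, Ptafr (platelet-activating factor receptor) at 1.10, and Fpr2 read 178 and 97.9 (-0.76) where siGFP cells read 822 and 144 (-2.53).

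Among enzymes of amino acid and one-carbon metabolism, 4 were 2-fold lower with iron, Pycr1, Pck2, Cth and Aldh1l2, and the untreated siTfe3/Tfeb array was the highest of the 4 for each. Over all measured genes 0.452% were 2-fold lower. Pycr1, which completes proline synthesis, read 295 and 105 (log2 -1.38, spot SD 0.20), against 45.5 and 22.4 in siGFP cells, where the iron array was not well above background and the gene at least 2.05-fold lower. Its other probe stood at -0.46 in siTfe3/Tfeb cells. Pck2 (mitochondrial phosphoenolpyruvate carboxykinase) read 9273 and 3930.1 (-1.14), against 1962 and 1784. Cth read 81.7 and 132 in siGFP cells, where its log2 difference was 0.68. For Pycr1, Pck2 and Cth the siTfe3/Tfeb array with iron was lower than the untreated one and still higher than both siGFP arrays. Gpt2 (alanine transaminase) and Asns (asparagine synthetase) stood at -0.96 and -0.80. The siGFP readings were 13835 and 16028 for Asns, against 32503 and 17448. Of the 15 measured proline, asparagine, alanine and cysteine enzymes 13 lay below 0 (median -0.13). Among serine and one-carbon enzymes Aldh1l2, which oxidises formyl-folate in mitochondria, read 1352 and 502 (log2 -1.33, spot SD 0.11), against 173 and 171. Psph, Shmt2 and Mthfd2 stood at -0.72, -0.55 and -0.50, and 9 of 13 lay below 0 (median -0.16). Of 20 cytosolic aminoacyl-tRNA synthetases 14 lay below 0 (median -0.20), where 13 lay above 0 in the siGFP pair. Those differences were small, with Mars1 and Lars lowest at -0.54 and -0.54.

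Regulators of the integrated stress response, through which Atf4 drives such enzymes, were split. Atf4 itself stood at 0.0068, Trib3, Ddit3 and Nupr1 at -0.51, -0.51 and -0.78 (another Nupr1 probe at 0.24), and Atf3, Cebpb and Ppp1r15a at 0.97, 0.68 and 0.65. The list median was -0.11, with no 2-fold member. Transporters also went both ways: Slc6a8, the creatine importer, read 367 and 1256 (log2 1.88), and Slc6a9, a glycine importer, 5478 and 3182 (-0.68).

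The composite element that Atf4 and C/EBP factors are known to share, TGATGNAA, is shown in 6 promoters, since genes with the same letters lay on opposite sides of 0 with iron: Slc7a11 (1.63) and Atf3 (0.97) above, Pycr1 (-1.38), Pck2 (-1.14), Asns (-0.80) and Nupr1 (-0.78) below. The windows are Slc7a11 chr3:50443614-50443719 (minus strand, 2 matches), Atf3 chr1:191183396-191183483 (minus), Pycr1 chr11:120643804-120643891 (minus), Pck2 chr14:55540123-55540210 (plus), Asns chr6:7693210-7693272 (minus) and Nupr1 chr7:126625533-126625620 (minus).
Slc7a11: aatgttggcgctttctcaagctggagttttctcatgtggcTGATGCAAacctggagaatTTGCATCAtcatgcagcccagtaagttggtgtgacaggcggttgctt
Atf3: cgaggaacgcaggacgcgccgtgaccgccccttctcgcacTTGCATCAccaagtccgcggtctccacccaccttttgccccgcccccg
Pycr1: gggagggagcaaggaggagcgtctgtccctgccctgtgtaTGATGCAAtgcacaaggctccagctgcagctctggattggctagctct
Pck2: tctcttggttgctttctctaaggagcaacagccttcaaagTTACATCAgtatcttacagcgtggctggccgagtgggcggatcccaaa
Asns: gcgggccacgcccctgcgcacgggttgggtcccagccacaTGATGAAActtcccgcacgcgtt
Nupr1: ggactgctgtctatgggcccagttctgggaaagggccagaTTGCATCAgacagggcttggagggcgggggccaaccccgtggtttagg
The first matches begin 66, 110, 103, 103, 23 and 110 bases before the start. The letters were found in 12 of 61 measured genes of the amino acid and stress response lists (19.7%), in 4 of 47 2-fold lower genes (8.51%), in 10 of 169 2-fold higher genes (5.92%), in 320 of 11235 measured genes (2.85%) and in 3.45% of all windows. None of these matches overlaps one to the other elements searched.

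Genes of mitosis lay below 0 throughout, by small amounts. All 30 measured members lay below 0, with a median of -0.44 and none 2-fold, and in the siGFP pair all 30 lay below 0 (54.0% of all measured genes did) with a median of -0.18. The kinetochore gene Ndc80 read 1210.2 and 671 (log2 -0.75), against 745 and 678, and the spindle motor Kif11 and cyclin Ccnb2 stood at -0.72 and -0.56. As with those 4 enzymes, the untreated siTfe3/Tfeb array was the highest of the 4 for Ndc80. Replication genes had a median of -0.12 and histones -0.27, with Pcna above 0 at 0.60. Among p53 targets, 16 of 21 lay above 0 (median 0.21), with the kinase Plk2 at 88.01 and 407 (log2 2.31) and the cell cycle inhibitor Cdkn1a at 0.88. Growth restraint genes, known to be raised in quiescent or starved cells, lay below 0 in 17 of 19 cases (median -0.42), with Ypel1 at 109 and 37.99 (log2 -1.42) and the Myc antagonist Mxd4 at 1376 and 596 (-1.10). Kruppel-like factors were below 0 in 8 of 9 cases, with Klf2 and Klf4 at -0.96 and -0.85.

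Lists of respiratory chain, mitochondrial ribosome, proteasome, folding, chaperone and glycolysis genes held no 2-fold gene except Cox6a2, described below. Respiratory chain genes had a median of 0.0069 and mitochondrial ribosomal proteins 0.025. Proteasome subunits lay above 0 in 31 of 33 cases with a median of 0.21, led by Psmb6 at 0.69. Endoplasmic reticulum folding genes had a median of 0.27, with Edem1 and Sdf2l1 at 0.73 and 0.68 and the sensor Ern1 at -0.80. Heat shock chaperones had a median of 0.056, with Hsp90aa1 at 0.69 and Hspa1b at -0.98. Glycolysis and hypoxia genes stood at a median of 0.068, with Slc2a1 and Hif1a at 0.62 and 0.63. In arginine and polyamine metabolism, arginase 2 (Arg2) read 122 and 330.0 (log2 1.54) and ornithine decarboxylase (Odc1) 39875 and 87070.1 (1.23), while Nos2 was at 0.66. Among intracellular serpins and cystatins, Serpinb1a and Cst7 were 2-fold higher at 1.44 and 1.01.

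The largest downward difference was in a single respiratory chain gene. Cox6a2, the muscle isoform of a cytochrome oxidase subunit, read 1563 and 411 (3.54-fold lower, log2 -1.82, spot SD 0.11), against 116 and 157 in siGFP cells (0.42). The untreated siTfe3/Tfeb array was again the highest of the 4. Rdm1, a RAD52 motif protein, read 2473 and 725 (log2 -1.67), against 633 and 449, and Dbp, a circadian transcription factor, 4763 and 1964 (-1.18), against 1771 and 1100.5. For Cox6a2, Rdm1 and Dbp the siTfe3/Tfeb array with iron still lay above both siGFP arrays. Since the untreated siTfe3/Tfeb array enters both the iron difference and the difference from siGFP, the 2 differences are tied through that array. The siGFP log2 differences of Rdm1 and Dbp were -0.51 and -0.70, so these genes were lower with iron in both pairs, unlike Cox6a2. Plxdc2, also lower in both pairs, read 229 and 71.02 (-1.58), against 364 and 223 (-0.73), and Zmynd15 stood at -1.33 and -1.48. Pax6, a developmental transcription factor, read 479 and 182 (-1.29), against 247 and 131 (-0.93). Among the 25 largest, Fam166b, Matn4, Klhl33, Parp8, Meig1, Mchr1 and Zfp938 were dim, between 55.1 and 84.2 untreated, at log2 differences from -1.21 to -1.76 where the spot SD was 0.39. With normexp background, 9 of the 33 lower genes named in these paragraphs stayed past 2-fold (Cox6a2, Rdm1, Aldh1l2, Soat2, Pck2, Dbp, Ms4a6b, Mxd4 and Pax6), against 65 of 85 higher ones. The 20 higher genes under 2-fold with it were Adamts1, Areg, Cd200r1, Cd200r2, Cd200r4, Csf1, Csf2, Cst7, Cxcl2, F3, Gdf15, Gstm4, Gstt1, Itga8, Me1, Mmp19, Osm, Ptafr, Tfec and Txnrd1. With the mean over all probes of a gene, 27 of the 33 and 78 of the 85 stayed past 2-fold. Mxd4, Pax6, Pycr1, Matn4, Siglecf and Slc25a23 fell under it, as did Csf1, Lpl, Mmp19, Mt1, Osm, Pdgfb and Sqstm1. With quantile normalization 29 and 81 stayed, without Cd101, Gsta3, Pdk2, Slc25a23, Adam8, Cxcl2, Sqstm1 and Txnrd1.

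**Figure D3:**
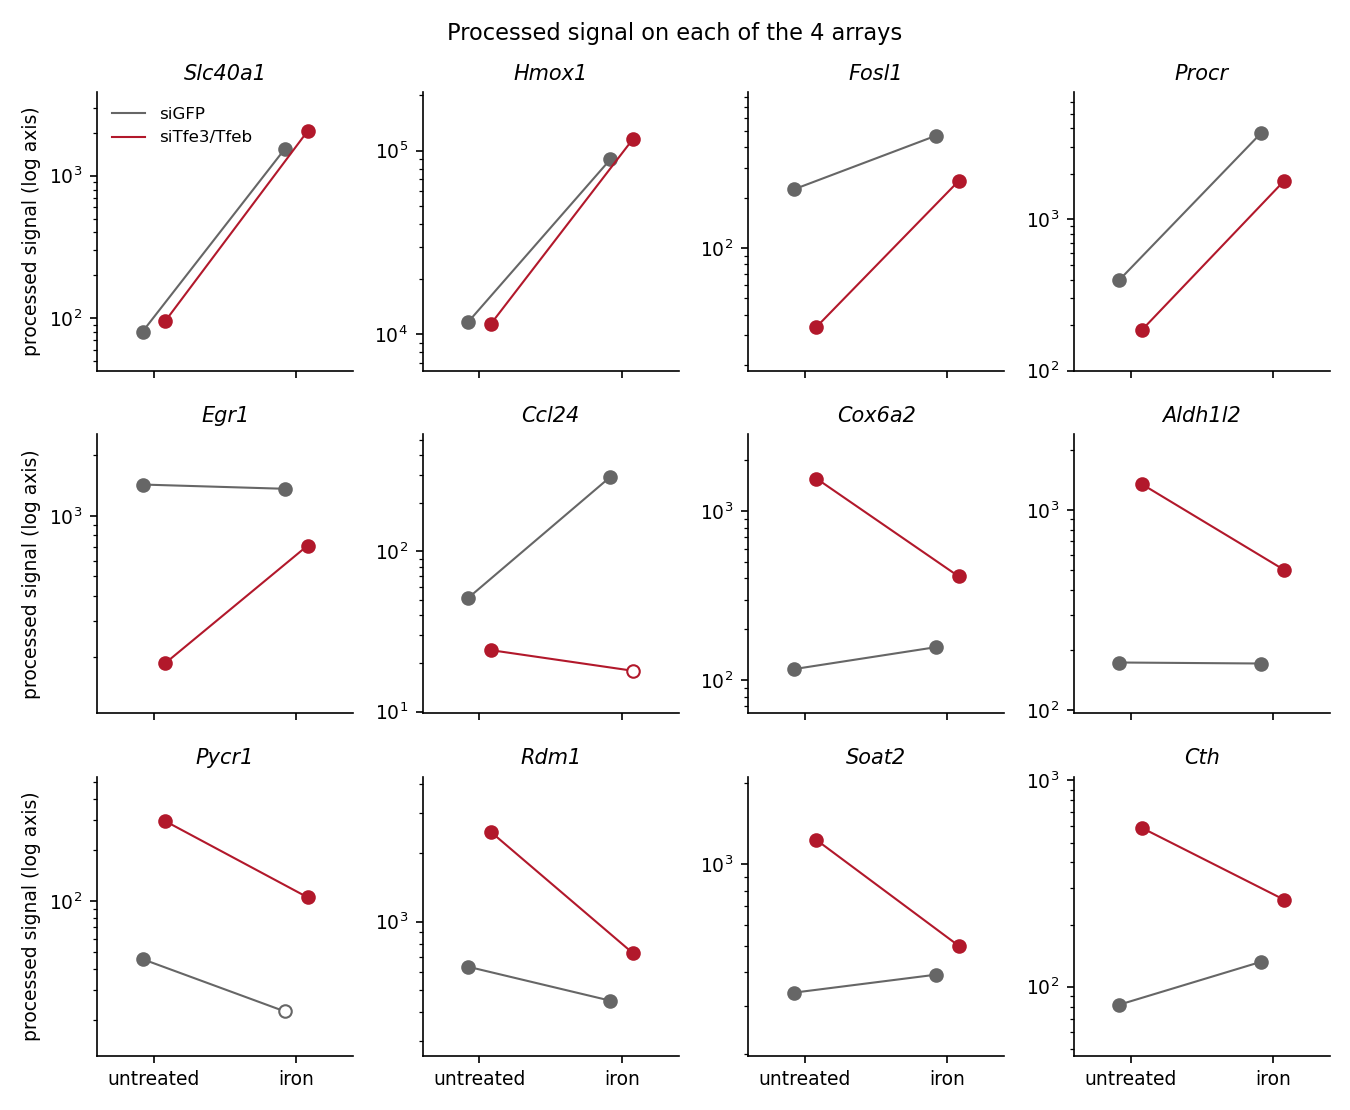
Processed signal on a log axis (vertical) without and with iron (horizontal) for 12 genes, siGFP arrays in grey and siTfe3/Tfeb arrays in red, 1 array a point, open where not well above background. Slc40a1, Hmox1 and Procr run alike in both pairs; Egr1 and Fosl1 start low, and Cox6a2, Aldh1l2, Pycr1, Rdm1, Soat2 and Cth start high, on the untreated siTfe3/Tfeb array.

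Genes not well above background on 1 array give only bounds, the brighter array against the higher of the dimmest reliable signal and the dim probe's own. Where the dim probe's own signal is used, as for Ptpn14 and Fn3k, the bound is the ratio of its scaled readings. It then carries the error of a dim spot and is no firm minimum. Ptpn14, a tyrosine phosphatase, read 21.02 and 378 and was at least 19.3-fold higher with iron, against at least 16.7-fold in siGFP cells (10.3 and 365). The next largest were Tmod1 (tropomodulin 1), at least 6.06-fold, Pik3c2g (a class II phosphoinositide kinase), at least 5.67-fold, and Serpini1 (neuroserpin), at least 5.37-fold. On the lower side Fn3k, which removes sugar from glycated proteins, read 109 and 23.8 and was at least 4.26-fold lower, followed by Rnf122, Cracdl and Sema6d at 3.08, 2.82 and 2.77-fold. Of the 41 lower bounds, that of Fn3k was the only one past 4-fold. With normexp background Fn3k, Rnf122, Cracdl and Sema6d were under 2-fold, at log2 differences of -0.7592, -0.4887, -0.4839 and -0.4797.

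In the siGFP pair, 1.41% of the genes measured on both arrays were 2-fold higher with iron and 0.266% lower. Of the 13887 genes that were well above background on every array, 219 were 2-fold higher with iron in siTfe3/Tfeb cells and 187 in siGFP cells, and 132 were in both sets, 60.3% of the first and 70.6% of the second. Downward, 59 and 34 genes passed, with 6 in both, 10.2% of the first and 17.6% of the second. The 219 higher genes had a median of 1.33 in siTfe3/Tfeb cells and 1.11 in siGFP cells. In siGFP cells 213 of them lay above 0, against 46.0% of all genes measured on both siGFP arrays. The 59 lower genes had medians of -1.13 and -0.52, and 51 lay below 0 in siGFP cells, against 54.0% of all. Both sets were chosen by passing 2-fold in the siTfe3/Tfeb pair, so larger medians in that pair follow from the choice. Whether the shares differ between directions was not tested.

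**Figure D4:**
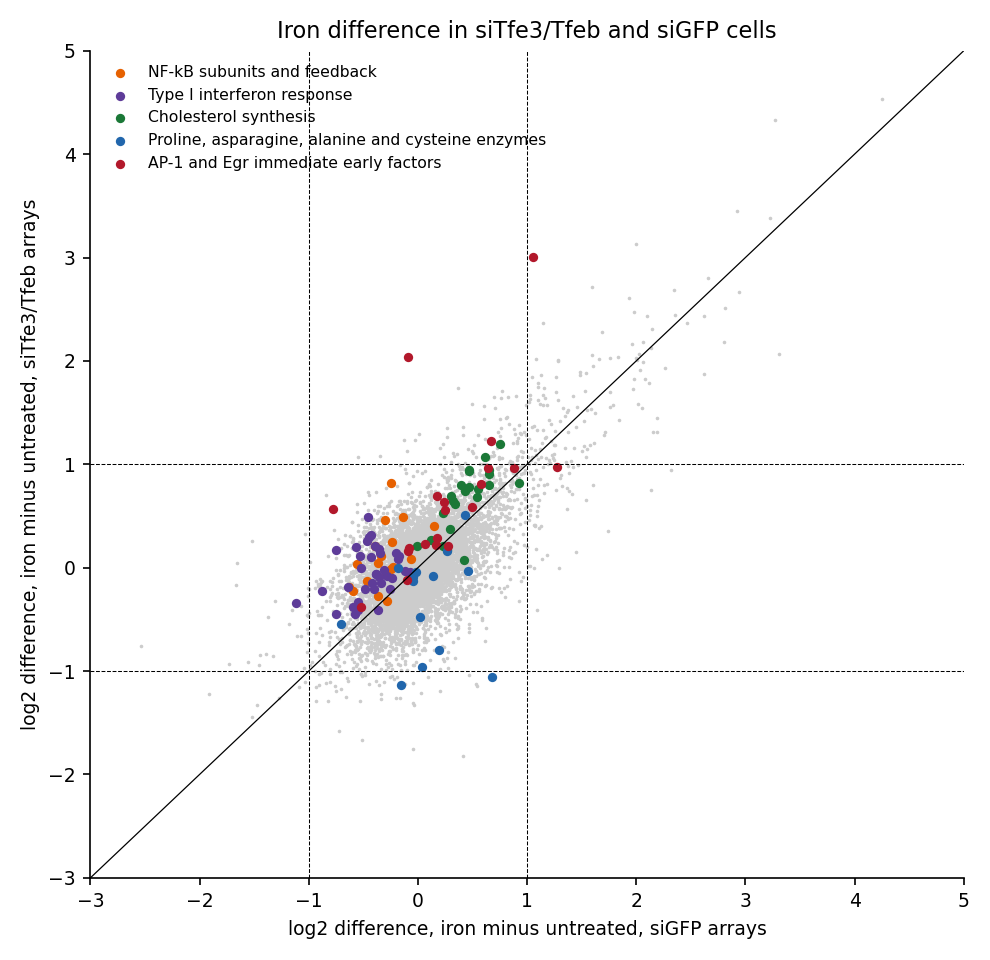
Log2 difference, iron minus untreated, in siTfe3/Tfeb cells (vertical axis) against siGFP cells (horizontal axis) for the 13887 genes above background on every array (grey), with 5 gene lists in colour, equality as a solid line and 2-fold as dashed lines. Cholesterol synthesis genes lie above 0 on the vertical axis, 37 interferon genes lie left of 0 on the horizontal axis, and Fosl1 and Egr1 stand far above the line at 3.003 and 2.04 against 1.05 and -0.087.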

How the data were processed

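RNA of 4 RAW264 cultures was labelled with Cy3 and hybridised to 1 mouse Agilent array each. The scanner files were made with Agilent Feature Extraction 12.0.3.1, per the submitters' processing notes, and hold the background-subtracted processed signal as a linear intensity, per the file headers. The deposited value table holds log2 values of the same arrays, centred probe by probe (probe medians over the arrays lie within 5e-07 of 0). The array medians of that table were -0.0042 and 0.022 for siGFP cells and -0.087 and 0.0013 for siTfe3/Tfeb cells, untreated first, and its differences between arrays matched the scanner signals with a slope of 1 and a correlation of 1. It served as an alternative. Any further normalization by the authors is not given in the sources used here.

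Control spots were dropped, spots of a probe averaged (62976 spots, 56605 probes, of which 3 were dropped as outliers), and log2 processed signals were scaled by subtracting each array's 75th percentile. Probes were named through RefSeq tables of assembly GRCm38.p6: 34584 by accession, 9184 by symbol and 285 by synonym, with 12549 left unnamed and out of the gene counts. The brightest probe stood for each of 24934 genes, and a difference was kept where the brighter array was well above background. Where the dimmer array was not, the value is a bound. A gene was called at 2-fold, with 1 array a group and no test. Genes named are the 25 largest measured differences and 8 largest bounds each way, the 3 nearest to 2-fold, the 2-fold members and up to 6 largest of each of 62 gene lists, the MiT/TFE genes and the regulators or rate-limiting members of a list. Names that are only identifiers, and genes with a further probe of opposite sign, were left out of the 25 largest. Some genes that this rule selects are not reported here. The members and lists were chosen with earlier results of these data known, and 3 further lists after their values were seen. Alternatives were normexp background (offset 50), quantile normalization, both together, median centring, the deposited log2 values, no background filter, a filter on both arrays and the mean over probes. Tools were Python 3.11.15, numpy 2.4.6, pandas 2.3.3, scipy 1.17.1, R 4.3.3 and limma 3.58.1. The calculation was tested on simulated data, with spot error only and changes placed on genes clear of background. Changes near 2-fold, or in genes near background, were not simulated.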

Additional observations from a re-analysis of the deposited data

How the results depend on the processing

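No paired analysis was possible because each group has 1 array, and no replicate could be left out. Against 271 genes higher and 105 lower (72.07% higher), normexp background gave 153 and 17 (90.0%), normexp with quantile normalization 150 and 19 (88.76%), and no background filter 586 and 1290 (31.24%). Requiring both arrays above background gave 64 lower genes (78.23% higher), quantile normalization a share of 76.97% and median centring 79.44%. Counts under the remaining alternatives lay within 1.5 times, and normexp kept 152 of the 271 and 17 of the 105. Of 62 list medians, 43 were above 0, and 40 to 49 under the alternatives; 51 kept their sign throughout. Of the 11 others, 10 had a median within 0.06 of 0, and the Ms4a and Tmem176 list stood at 0.146 without the background filter. Without that filter the median fell from 0.348 to 0.129 for haem breakdown and transport. For glutathione S-transferases it fell from 0.446 to 0.209. No gene past 2-fold that the Results name changed sign. Median centring, the deposited values and the filter on both arrays leave little room for such a change. Genes named only under other observations were not put through the alternatives. The median of all genes shifted by at most 0.055. Signal over background limits the dim genes: the spot SD was 0.487 for the dimmest probes and 0.0637 for the brightest. With 1 array a group the spread between cultures is unknown.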

Other observations

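Host genes of small nucleolar RNAs, whose spliced transcripts are known to be degraded with translation, were mostly lower with iron. The list was chosen after its values were seen. Of 18 measured members 16 lay below 0, with a median of -0.43 against -0.33 in siGFP cells, where 16 lay below 0. Snhg1 read 3145 and 1343 (log2 -1.12), Zfas1 30833 and 14953 (-0.94), Snhg12 3756 and 1956 (-0.84) and Gas5 55325 and 36176 (-0.51). Snhg5 stood at -1.10, but its other probe stood at 0.57.

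Clock genes and leukocyte immunoglobulin-like receptors were also listed after their values were seen. Of the clock genes Dbp and Per3 were lower at -1.18 and -0.77, and the repressors Bhlhe40 and Bhlhe41 higher at 0.65 and 0.76, with a list median of -0.11. All 5 measured leukocyte immunoglobulin-like receptors lay above 0 (median 0.69). Lilr4b and the inhibitory receptor Lilrb4a read 1453 and 3965 (log2 1.55) and 31982 and 85634 (1.52), and Lilra6 stood at 0.40 against 1.12 in siGFP cells. The sequences of Lilr4b and Lilrb4a are close, so a probe may read both.

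Further 2-fold genes outside the lists, chosen after their values were seen, differed between the pairs without a test of that difference. Acod1 (aconitate decarboxylase, which makes itaconate) read 8302 and 18947 (log2 1.29), against 24525 and 25023 (0.012) in siGFP cells. Erfe (erythroferrone, a hormone that lowers hepcidin) read 102 and 43.6 (-1.12), against 27.97 and 40.95 (0.53), and Adgre5 (CD97) 1118 and 508 (-1.04), against 416 and 584 (0.47). Alike in sign in both pairs were Cd93, 1015 and 3929 (2.06, 1.59 in siGFP cells), Hcar2 (the niacin receptor), 558 and 1513 (1.54, 0.70), and Tent5c (a poly(A) polymerase), 297 and 1158 (2.06, 3.31).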
